A study of Mus musculus with 10 samples.

Results

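Transcripts of the insulin and insulin-like growth factor (IGF) axis were examined in mouse pancreatic tumors grown with and without dextrose in the drinking water. The axis was taken as 10 genes chosen by name from the 55359 genes of the deposited table: the receptors Insr, Igf1r and Igf2r, the receptor substrates Irs1 and Irs2, the ligands Igf1 and Igf2, and the binding proteins Igfbp3, Igfbp5 and Igfbp7. Of these, 9 passed the filter on low values (mean normalized count of at least 1) and Igf2 did not. A further 96 genes of the pathway were listed beside them.

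The tumors were grown in the pancreas of C57BL/6 mice (C57BL/6 J in the methods) injected at 10 weeks of age with KPC K8484 cells, a luciferase-expressing mouse line that carries Pdx1-Cre and mutant Trp53. The CTRL group (5 tumors, columns N1, N2, N4, N5 and N6) came from normoglycemic mice on regular water. The D30 group (5 tumors, columns T1, T2, T4, T5 and T7) came from mice that drank 30% dextrose water for 14 days. The sample titles call them PDX, but their source is the mouse line. All tumors descend from 1 cell line and were sequenced as whole tissue, so each value sums tumor cells, host stroma and any pancreas taken along, and fewer cells of a type cannot be told apart from less RNA per cell.

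Insulin and IGF1 bind the tyrosine kinase receptors encoded by Insr and Igf1r, which phosphorylate the docking proteins IRS1 and IRS2. Through PI3K and AKT these raise mTORC1 activity and keep FOXO transcription factors out of the nucleus. Igf2r, the cation-independent mannose 6-phosphate receptor, has no kinase: it carries lysosomal enzymes and takes up IGF2 for degradation. IGF binding proteins hold IGFs outside the cell and set how much of them reaches a receptor.

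The sequences upstream of the members' start sites were searched because Igf2r differed between the groups while Igf1r and Insr did not pass the test. RefSeq (GRCm38.p6) gave the 250 bases before the start for 9 of the 10 members, at 12 starts; Insr was not matched. The E-box CACGTG, which reads the same on both strands and is the core sequence that MYC, USF and ChREBP type factors recognise, occurred before the starts of Igf2r, Irs1 and Irs2. It lay 48 and 7 bases before the RefSeq start of Igf2r, 115 bases before that of Irs1 and 44 bases before that of Irs2. RefSeq starts can differ from the gene positions given below, which are those of GENCODE M21. The Irs2 window spans chr8:11008930-11009179, while its GENCODE gene ends at 11008458. Of 32851 promoter windows of this length, 6.02% held CACGTG and 0.429% held it 2 or more times, as did that of Igf2r. CACGTG holds a CG, and the windows with a match were rich in CG. They had more CG than 91.4% (Igf2r), 92.4% (Irs1) and 96.5% (Irs2) of all windows. The share with CACGTG among windows equally rich in CG was not measured. The forkhead motif GTAAACA, searched on both strands, was in none of the members' windows and in 3.17% of all windows. The Igf2r window (chr17:12769707-12769956, minus strand) is shown whole and the others as the 30 bases around the motif (Irs1 chr1:82291537-82291566 and Irs2 chr8:11008956-11008985, both minus strand), with CACGTG in capitals. These are matches of letters, not measured binding.
Igf2r: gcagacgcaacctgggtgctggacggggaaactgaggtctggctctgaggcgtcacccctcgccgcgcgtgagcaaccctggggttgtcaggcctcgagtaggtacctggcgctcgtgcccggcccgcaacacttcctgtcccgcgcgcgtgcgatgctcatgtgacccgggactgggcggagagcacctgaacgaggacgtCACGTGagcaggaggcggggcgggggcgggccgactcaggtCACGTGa
Irs1: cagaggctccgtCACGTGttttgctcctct
Irs2: gtaacgcagagtCACGTGttgttttgctct

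Recovered reads ranged from 29192261 to 42122304 per tumor. Some tumors stood apart. T4 had 841 reads of 4 Y-linked genes and the other 9 tumors 0, which allows up to 3 reads each, although the methods state equal numbers of male and female mice. In T4 the genes with the longest summed exons (above the third quartile) had a median log2 deviation of -0.43 from the mean over tumors and those with the shortest (below the first quartile) 0.56, a difference of -0.99 where the other tumors lay between -0.25 and 0.48. T4 was the lowest of the 10 tumors for 41 and the highest for 14 of 92 pathway genes tested, and the lowest for 4 of 9 members, where over all genes tested it was lowest for 22.3% and highest for 24.3%, and T5 had the fewest genes with a read (20482, the others 23446 to 25912). N2 and N6 had the most acinar transcript, with summed marker counts of 28406 and 61233 where the other CTRL tumors had 297 to 3151.

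Igf2r was the only member to pass the test. It had 352, 368, 366, 207 and 406 normalized counts in N1, N2, N4, N5 and N6, and 2367, 1620, 568, 1519 and 1350 in T1, T2, T4, T5 and T7. Every D30 tumor lay above every CTRL tumor, T4 by the least. The mean was 340 ± 76.8 (SD, n = 5) in CTRL and 1485 ± 644 (n = 5) in D30. Igf2r thus rose 4.06-fold on the scale of log2(normalized count + 1), a log2 fold change of 2.02 ± 0.34 (SE; 95% confidence interval 1.30 to 2.75) with an adjusted p of 0.00717 over the 24560 genes tested (limma, Benjamini-Hochberg). The log2 fold change was 2.33 without T4 and 2.38 without T4 and T5. Without N2 and N6 it was 2.17 with an adjusted p of 0.0732, in a fit that called 66 genes in all. Among the genes tested, 2.76% were called in either direction, 1.4% higher (344 genes) and 1.36% lower (334) in D30, against 1 of 9 members tested. The higher and lower calls numbered 240 and 627 under library-size scaling, or 457 and 250 under edgeR. Markers of other cells were measured beside Igf2r. Epithelial tumor cell markers summed to normalized counts between 224827 and 355346 in the CTRL group and between 377669 and 500302 in the D30 group, without overlap. Of these 9 markers 7 had a higher mean in D30, and Cldn7, at 0 in T5, was the only one called and was lower, while Epcam was at 0 in T2. Neutrophil markers had a higher mean for 8 of 8, with 0 called by limma and 4 at an unadjusted p under 0.05, and their sums overlapped (679 to 3337 and 825 to 16498, with Ly6g at 0 in N6). The part of these cells in the Igf2r values was not tested.

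Igf2r (ENSMUSG00000023830, chr17:12682406-12769664 on the minus strand in GRCm38) is an imprinted gene, and the noncoding RNA Airn is transcribed across it from the opposite strand. The library kit kept strand, but the strand setting of the authors' counting is not given in the sources used here, so reads of the pair may not be fully separated. Airn had 117 to 195 normalized counts in CTRL and 94.8 to 230 in D30, with overlapping groups and a log2 fold change of -0.06 (limma adjusted p 0.948). Airn was looked at because it overlaps Igf2r. The genes most like Igf2r in their deviations from the group means over the 10 tumors were Kif23 (Pearson r = 0.963), Cdc25c (0.960) and Bora (0.933), all known for roles in mitosis. These tumors share the same libraries and T4 lies apart in them.

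The signalling receptors did not pass the test. Insr (chr8:3122061-3279617, minus strand) had 2850, 3270, 3059, 4523 and 3319 normalized counts in the CTRL tumors and 3654, 3289, 2244, 2451 and 2837 in the D30 tumors, in the order of columns used above. The groups overlapped, with the highest value in N5 and the lowest in T4. Its log2 fold change was -0.24 (95% confidence interval -0.66 to 0.18; limma adjusted p 0.573).

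Igf1r (chr7:67952827-68233668, plus strand) had 890, 2286, 2671, 2617 and 2102 normalized counts in CTRL and 2495, 2196, 876, 3573 and 2336 in D30. N1 and T4 were low within their groups and T5 was the highest, so that the range in each group held most of the other. The log2 fold change was 0.08 (95% confidence interval -0.73 to 0.90; limma adjusted p 0.938), an interval that leaves room for a change of over 1.5-fold in either direction. The sign turned with library-size scaling (-0.14), under which the median of all genes shifted from -0.06 to -0.27, and also without N1 (-0.20) or T5 (-0.11). Furin, a protease that processes the precursors of both receptors, was the gene most like Igf1r over the tumors (r = 0.996), followed by Kif1c (0.988) and Phf13 (0.986).

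**Figure D1:**
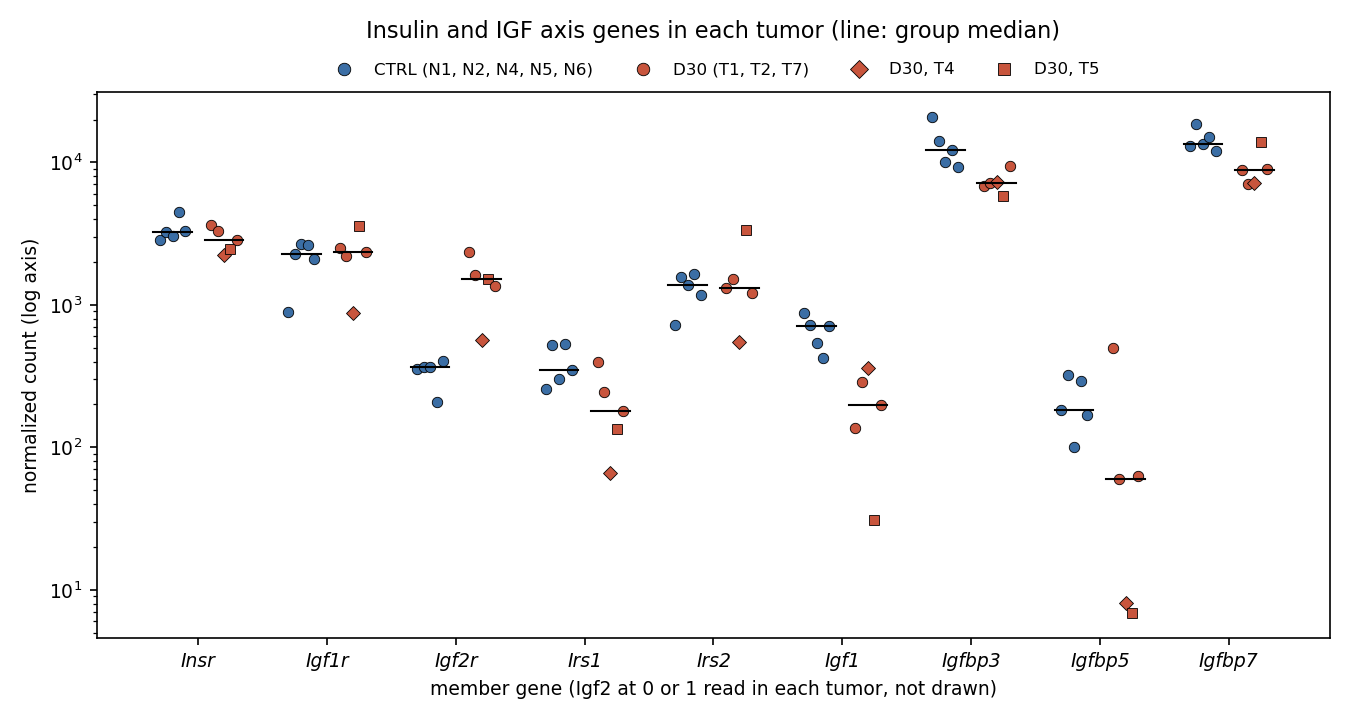
Normalized counts (log axis) of the 9 members with a mean of at least 1 in each of the 5 CTRL and 5 D30 tumors, with T4 as a diamond, T5 as a square and lines at the group medians. The groups separate for Igf2r, whose D30 tumors start at 568 above a CTRL maximum of 406, and for Igf1, whose D30 tumors end at 359 below a CTRL minimum of 421.

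The substrates gave different values from each other. Irs1 (chr1:82233101-82291416, minus strand) had 258, 521, 303, 530 and 347 normalized counts in CTRL and 395, 246, 65.9, 135 and 181 in D30. T4 was the lowest and 4 of the 5 D30 tumors were below the CTRL minimum, while T1 lay inside the CTRL range. The mean was 392 ± 126 in CTRL and 205 ± 125 in D30 (SD, n = 5 each), and the log2 fold change of -1.11 ± 0.42 (SE) did not pass (limma adjusted p 0.191); without T4 and T5 it was -0.53. Irs1 passed in 0 of 22 alternative fits.

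Irs2 (chr8:10984681-11008458, minus strand) had 726, 1567, 1372, 1647 and 1182 normalized counts in CTRL and 1308, 1510, 552, 3379 and 1207 in D30. The D30 range enclosed the CTRL range, with T4 at its bottom and T5 at its top. The log2 fold change was 0.11 (95% confidence interval -0.74 to 0.96; limma adjusted p 0.921), and -0.11 with library-size scaling, -0.09 without N1 and -0.22 without T5.

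A ratio within a tumor removes that tumor's scaling, but not a shift by exon length such as that of T4. Irs1 has 9144 bp of summed exons, above the third quartile of 6784 bp, and Irs2 has 6323 bp. The part of exon length in the ratios was not tested. The log2 ratio of Irs2 to Irs1 was 1.49, 1.59, 2.17, 1.63 and 1.76 in the CTRL tumors and 1.73, 2.61, 3.05, 4.63 and 2.73 in the D30 tumors. T1 lay among the CTRL tumors and the other D30 tumors lay above all of them. The mean was 1.73 ± 0.27 in CTRL and 2.95 ± 1.06 in D30 (SD, n = 5 each), a difference of 1.22 (two-sided exact permutation test, p = 0.0238, adjusted over 4 ratios 0.0476). Leaving out a tumor gave differences of 0.80 (without T5) to 1.53 (without T1). The adjusted p was then 0.0212 without T1, 0.0635 without N4 or N6, and 0.0952 without any of N1, N2, N5, T2, T4, T5 and T7. Since the smallest p that 4 against 5 tumors can give is 0.0159, adjustment over 4 ratios leaves little room in those tests.

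The log2 ratio of Igf1r to Insr was -1.68, -0.52, -0.20, -0.79 and -0.66 in CTRL and -0.55, -0.58, -1.36, 0.54 and -0.28 in D30. N1 and T4 were the lowest of their groups, as they were for Igf1r itself, and the groups overlapped (difference 0.32, exact permutation p = 0.421, adjusted p = 0.421).

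**Figure D2:**
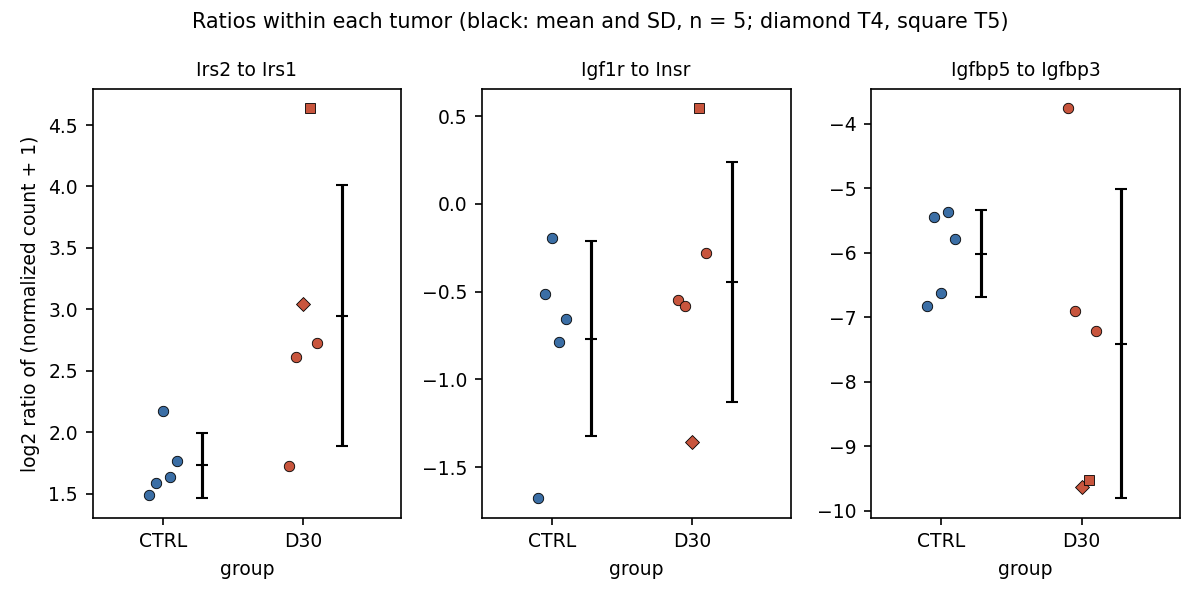
The log2 ratio of (normalized count + 1) within each tumor for Irs2 to Irs1, Igf1r to Insr and Igfbp5 to Igfbp3, with points for tumors and black bars for the mean and SD (n = 5). For Irs2 to Irs1, 4 of the 5 D30 tumors lie above the highest CTRL tumor (2.17) and T5 is the highest at 4.63.

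Igf1 (chr10:87858265-87937042, plus strand), which host stroma and macrophages are known to make, had 871, 721, 542, 421 and 706 normalized counts in CTRL and 136, 290, 359, 30.9 and 199 in D30. All 5 D30 tumors lay below all 5 CTRL tumors, T5 by the most. The mean was 652 ± 174 in CTRL and 203 ± 128 in D30 (SD, n = 5 each). The log2 fold change of -2.03 ± 0.54 (SE; 95% confidence interval -3.18 to -0.87) missed the threshold with a limma adjusted p of 0.0641.

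Whether Igf1 passed depended on the fit. Its adjusted p was 0.016 without T4 (log2 fold change -2.33), 0.0264 without T5 (-1.45) and 0.00208 without both (-1.67), and 0.00877 with DESeq2 on the recovered reads (-1.69) but 0.0788 with edgeR (-1.67). The fold change was negative in each of the 22 alternatives, of which 6 passed. Groups that do not overlap were found for 6.19% of all genes tested and for 2 of 9 members, Igf2r and Igf1.

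Markers of cells that can make Igf1 were measured beside it. Macrophage markers summed to 19510 to 32500 normalized counts in CTRL and 9707 to 27173 in D30, the top value being T4. Of 9 macrophage markers, 2 were called lower (Csf1r and Cd163) and 8 had a lower mean on the log scale. Of 10 fibroblast markers, 10 had a lower mean and 0 were called by limma, 6 of them with an unadjusted p under 0.05, and they summed to 75018 to 133748 normalized counts across CTRL tumors against 26800 to 101123 across D30 tumors. Every macrophage marker was read in every tumor, and of the fibroblast markers Dpt alone was at 0, in T5. The genes most like Igf1 over the tumors were Irf8 (r = 0.973), Tnfsf8 (0.971) and C1qa (0.967), which are known from myeloid or lymphoid cells. This likeness is of deviations from the group means. Their own log2 fold changes were 0.04, -2.02 and -0.80 (limma adjusted p 0.969, 0.366 and 0.283). The part of these cells in the Igf1 values was not tested.

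Igf2 (chr7:142650766-142666816, minus strand), the fetal growth factor that Igf2r takes up, was at 0 or 1 read in every tumor, below the floor of 3 reads, so no fold was formed. In GENCODE M21 it overlaps Gm49394 on the same strand, also listed at 0 in every tumor, and the sources used here list RSEM, which divides shared reads by estimation, among the software without saying how these reads were counted, so the level of Igf2 itself is uncertain. The ratio of Igf1 to Igf2 therefore mostly follows Igf1, but 1 read of Igf2 in each of N2, T1 and T4 lowers their ratios. Its difference was -2.29, where the log2 fold change of Igf1 was -2.03. The exact permutation p of this ratio, 0.00794 (adjusted p = 0.0317), is the smallest that 5 against 5 tumors can give. With a tumor left out its adjusted p was 0.0212 without T1 and 0.0635 without any of the other 9 tumors. In each of these fits the groups still did not overlap. The exact permutation p before adjustment was therefore 0.0159, the smallest that 4 against 5 tumors can give. The adjusted values differ through the other ratios alone and cannot show how the Igf1 to Igf2 ratio depends on a tumor.

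The insulin genes are the other ligands of the axis. Ins1 had 41.0, 410, 17.4, 0.885 and 542 normalized counts in CTRL and 0, 0, 1.16, 0 and 0 in D30. N2 and N6 were far above the other CTRL tumors, and N5 was at 1 read, inside the D30 range. Ins1 was called lower (limma adjusted p 0.0355), and no fold is given because D30 held 1 read in all. Ins2 had 48.4, 504, 15.5, 2.66 and 549 in CTRL, 11.6 in T4 and 0 in the other D30 tumors (limma adjusted p 0.0514). Ins2 was called lower in 7 of 21 alternatives, namely without T4 (0.0136), N5 (0.0223) or T4 and T5 (0.0128), with library-size scaling (0.0414), a pseudocount of 0.5 (0.0422), array weights (0.00267) and DESeq2 (0.0151).

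N2 and N6, far above the other CTRL tumors for insulin, were also high for other genes of the normal pancreas. Gcg, the glucagon gene, had 76.6 normalized counts in N2 and 181 in N6, and Prss2, an acinar trypsinogen, had 3486 in N2 and 7426 in N6. Islet markers, which include Ins1 and Ins2, summed to 11.5 to 1514 in CTRL and 4.11 to 83.6 in D30, with 3 of 8 tested called lower (Ins1, Gcg and Iapp). Ins1, Ins2 and Gcg were at 0 in T1, T2, T5 and T7, and Iapp in all 5 D30 tumors. Acinar markers summed to 297 to 61233 in CTRL and 173 to 5770 in D30, with 0 of 9 called by limma and 3 with an unadjusted p under 0.05. Acinar and insulin values did not match in every tumor. N1 had the lowest acinar sum of CTRL (297) but more Ins1 (41.0) than N4 (17.4, acinar sum 3151). T4 had the acinar sum of 5770, above those of N1, N4 and N5, with 1 read of Ins1. Without N2 and N6 the adjusted p of Ins1 was 0.246, and with a pseudocount of 5 it was 0.073. The Ins1 call was held without N5 (adjusted p 0.00763) or T4 (0.0239) and lost without N1 (0.0705), N2 (0.107), N4 (0.0536), N6 (0.0905), T1 (0.0673), T2 (0.0717), T5 (0.0596) or T7 (0.0836). How much pancreas each tumor piece held was not measured, and its part in the insulin values was not tested.

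**Figure D3:**
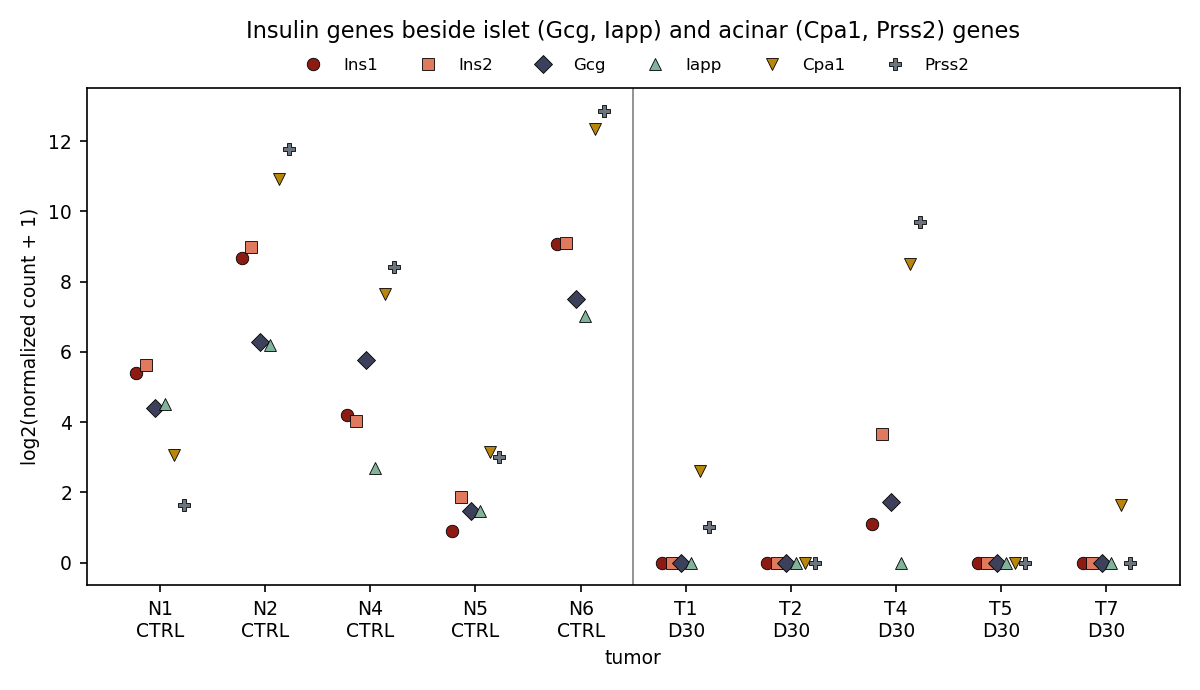
Log2(normalized count + 1) of Ins1 and Ins2 beside the islet genes Gcg and Iapp and the acinar genes Cpa1 and Prss2 in each tumor. N2 and N6 are high for all 6 genes, while Ins1 is at 0 in each D30 tumor except T4.

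All 3 member binding proteins had a lower mean in D30. Each had an unadjusted p under 0.05, as did 17.3% of all genes tested, and 0 of the 3 were called by limma. Igfbp3 (chr11:7206086-7213923, minus strand), the main IGF carrier of blood, had 20765, 14169, 10003, 12183 and 9335 normalized counts in CTRL and 6788, 7220, 7238, 5800 and 9414 in D30. Only T7 reached into the CTRL range. Its mean was 13291 ± 4591 in CTRL and 7292 ± 1322 in D30 (SD, n = 5 each), a log2 fold change of -0.82 ± 0.23 (SE, limma adjusted p 0.0819).

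Igfbp7 (chr5:77349240-77408041, minus strand), a secreted protein of vessels and stroma that binds IGFs weakly, had 13014, 18518, 13424, 15196 and 12058 normalized counts in CTRL and 8808, 7053, 7171, 13804 and 8997 in D30. T5 lay inside the CTRL range and the other 4 D30 tumors below it. The log2 fold change was -0.68 ± 0.22 (SE, limma adjusted p 0.119). Endothelial markers summed to 13207 to 20734 in CTRL and 7585 to 11659 in D30, with 7 of 9 lower and 1 called (Cdh5, vascular cadherin). Cdh5 was a large part of these sums, with 7205 to 14529 in CTRL and 2480 to 6142 in D30. Of the 9 markers it was the only 1 whose groups did not overlap. Vwf and Cldn5 had a higher mean in D30 on the log scale (log2 fold change 0.38 and 0.33). Every endothelial marker was read in every tumor, and the part of vessels in the Igfbp7 values was not tested.

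Igfbp5 (chr1:72857932-72874884, minus strand), a matrix-bound IGF carrier, spread most. It had 182, 324, 101, 293 and 168 normalized counts in CTRL and 500, 59.6, 8.10, 6.87 and 62.8 in D30. T1 was the highest of all tumors while T4 and T5 were the lowest. The log2 fold change was -2.22 ± 0.92 (SE, limma adjusted p 0.238). It depended on those D30 tumors, being -3.10 with an adjusted p of 0.0369 without T1 and -0.66 without T4 and T5. On the recovered reads it was -0.74 with edgeR and -0.74 with DESeq2, and with array weights it was -1.20.

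Calls among the binding proteins came and went with 1 tumor. Igfbp3 passed without T4 (-0.82, adjusted p 0.049) and Igfbp7 without T5 (-0.84, adjusted p 0.0312). The log2 ratio of Igfbp5 to Igfbp3 ranged from -6.83 to -5.37 in CTRL and from -9.64 to -3.76 in D30, so the CTRL range lay inside the D30 range (difference -1.39, exact permutation p = 0.254, adjusted p = 0.339; -2.30 with an adjusted p of 0.0212 without T1).

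**Figure D4:**
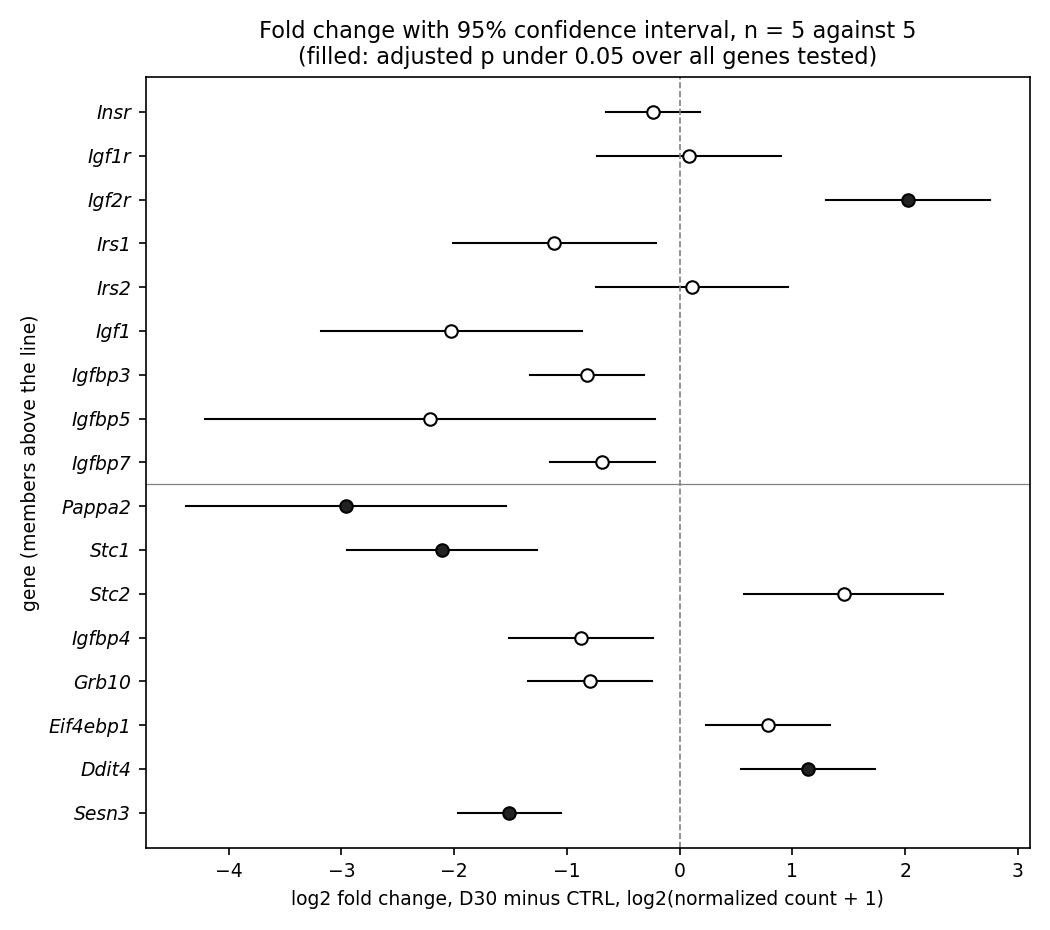
Log2 fold change (D30 minus CTRL, on log2(normalized count + 1)) with its 95% confidence interval for the 9 members tested, above the line, and for other pathway genes described in the text, below it, with filled points for a limma adjusted p under 0.05 over all genes. Igf2r at 2.02 is the only filled point among the members.

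Per kb of exon, the binding proteins Igfbp7 and Igfbp3 were the most abundant members. In CTRL the mean normalized count per kb was 11946 for Igfbp7, 4246 for Igfbp3, 248 for Insr, 205 for Irs2, 126 for Igf1r, 65.9 for Igf1, 42.9 for Irs1, 36.5 for Igf2r and 35.5 for Igfbp5. Igfbp7 lay above Igfbp3, and Igfbp3 above Insr, with no overlap of their tumors, while from Insr down to Igfbp5 each member overlapped the next. In D30 the order was Igfbp7 (7582 per kb), Igfbp3 (2330), Irs2 (252), Insr (211), Igf2r (160), Igf1r (137), Irs1 (22.4), Igfbp5 (21.2) and Igf1 (20.5). Igf2r thus moved from rank 8 per kb in CTRL to rank 5 in D30, where its range overlapped those of Insr and Igf1r. All 5 D30 tumors had more Igf1r than Irs1 per kb, with no overlap, and the last 3 overlapped each other. Lengths came from GENCODE M21 and reads of overlapping genes could not be set apart, such as Polr2b beside Igfbp7.

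The other 96 pathway genes were read from the same fit. Of 92 tested, 2 were called higher and 4 lower, 6.52% in all beside 2.76% of all genes, and 21 (22.8%) had an unadjusted p under 0.05, as did 17.3% of all genes. Their median log2 fold change was -0.08, beside -0.06 for all genes. Calls fell among ligands, regulators of binding proteins, mTORC1 inhibitors and FOXO genes.

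Among the 10 other binding proteins and regulators, 2 of 8 tested were called, both lower. Stc1, stanniocalcin 1, which inhibits the pappalysin proteases that free IGFs, had 506, 636, 635, 445 and 490 normalized counts in CTRL and 204, 175, 92.5, 43.5 and 201 in D30. The groups did not overlap. Stc1 fell by 2.11 ± 0.39 (SE) on the log2 scale (limma adjusted p 0.0127), and it passed in 21 of 22 alternatives, all but the fit without N2 and N6 (0.162). Pappa2, a pappalysin that cuts IGF binding proteins, had 67.3, 30.4, 20.1, 21.2 and 23.1 in CTRL and 2.06, 3.44, 13.9, 0 and 3.20 in D30, from at most 64 reads. Its groups did not overlap and it fell by 2.96 ± 0.66 on the log2 scale (limma adjusted p 0.0301). The Pappa2 call was held without T4 (adjusted p 0.00441) or T5 (0.0303) and lost without N1 (0.0761), N2 (0.0899), N4 (0.0539), N5 (0.0671), N6 (0.0707), T1 (0.0608), T2 (0.0565), T7 (0.0658) or N2 and N6 together (0.237), with edgeR (0.0519) and with no filter on low values (0.0501).

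The following 3 values were chosen after the data were seen. Stc2, stanniocalcin 2, which inhibits the same proteases, had 816, 444, 1103, 751 and 875 normalized counts in CTRL and 3094, 2550, 629, 2770 and 2988 in D30, with T4 alone inside the CTRL range (log2 fold change 1.46, limma adjusted p 0.0797). Stc2 was called in 5 of 22 alternatives: without T4 (log2 fold change 1.89, adjusted p 0.000525), without T4 and T5 (1.90, 0.000351), with array weights (1.88, 0.000214), with edgeR (1.60, 0.0363) and with DESeq2 (1.59, 0.00178). Stc1 and Stc2 thus had fold changes of opposite sign. Igfbp4, an abundant binding protein, had 11973 to 19918 in CTRL and 3660 to 12557 in D30 (log2 fold change -0.87, limma adjusted p 0.149), and it was called without T4 and T5 (-0.68, 0.0271) and with array weights (-0.80, 0.00414). H19, the noncoding RNA beside Igf2, had 86.8 to 373 in CTRL and 4.63 to 178 in D30 (limma adjusted p 0.279).

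The mRNA binding proteins of Igf2 and the proximal signalling genes gave no call. Igf2bp1 had 786 to 1452 normalized counts in CTRL and 480 to 1095 in D30, and Igf2bp2 had 3191 to 5022 and 2592 to 8011 (limma adjusted p 0.426 and 0.594). Of 24 receptor adaptors and inhibitors tested, 0 were called by limma and 4 had an unadjusted p under 0.05. Grb10, an adaptor that inhibits the insulin and IGF1 receptors, had 486, 640, 535, 389 and 581 in CTRL and 368, 331, 169, 313 and 366 in D30. These groups did not overlap, but its log2 fold change of -0.80 did not pass (limma adjusted p 0.124; DESeq2 0.0446). Enpp1, a membrane inhibitor of the insulin receptor, had a log2 fold change of -0.52 (limma adjusted p 0.239).

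Of 21 genes of PI3K and AKT, 0 were called by limma and 3 had an unadjusted p under 0.05, with log2 fold changes between -0.58 and 0.38. The smallest p values belonged to Inpp5d, a phosphatase of blood cells that removes PI3K's product (-0.50, limma adjusted p 0.219), and Phlpp2, a phosphatase of AKT (-0.51, limma adjusted p 0.269). Tbc1d4, an AKT substrate that governs glucose transporter traffic, was the only one of the 21 whose groups did not overlap (limma adjusted p 0.324). Groups did not overlap for 6.19% of all genes tested, and Tbc1d4 was named after the data were seen.

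Of 16 mTORC1 genes, 1 was called. Ddit4, also called REDD1, an inhibitor of mTORC1 raised by energy and oxygen stress, had 3138, 3090, 3391, 2914 and 3288 normalized counts in CTRL and 5535, 5643, 6044, 15929 and 5387 in D30. The CTRL tumors lay close together, every D30 tumor lay above them, and T5 stood far above the rest. Ddit4 rose by 1.14 ± 0.27 (SE) on the log2 scale (limma adjusted p 0.0449). The call was held without T4 (adjusted p 0.0225) or T5 (0.0107, log2 fold change 0.84) and lost without N1 (0.0869), N2 (0.121), N4 (0.0848), N5 (0.114), N6 (0.104), T1 (0.0543), T2 (0.0638), T7 (0.0641) or N2 and N6 together (0.308), with library-size scaling (0.0805) and with no filter on low values (0.0585). Eif4ebp1, a repressor of translation that mTORC1 inactivates, had 2491 to 3194 in CTRL and 3446 to 9831 in D30, groups that did not overlap (log2 fold change 0.78, limma adjusted p 0.132). Mlst8, named after the data were seen, also had groups that did not overlap but was lower in D30 (-0.52, limma adjusted p 0.190). Groups did not overlap for 9 of the 92 pathway genes tested and for 6.19% of all genes tested.

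Of 17 FOXO genes and genes they are known to activate, 1 was called higher and 1 lower. Sesn3, sestrin 3, a FOXO-activated inhibitor of mTORC1, had 1838, 2167, 1291, 2311 and 1871 normalized counts in CTRL and 678, 899, 534, 596 and 608 in D30. Every D30 tumor lay below every CTRL tumor. Sesn3 fell by 1.51 ± 0.21 on the log2 scale (SE; 95% confidence interval -1.97 to -1.05), 2.85-fold, with a limma adjusted p of 0.00282, and passed in 21 of 22 alternatives, the exception being the fit without N2 and N6 (0.0747). Foxo6, a FOXO factor best known from brain and liver, was at 0 to 2 reads in the CTRL tumors and 2 to 16 reads in the D30 tumors (limma adjusted p 0.0237), too few for a fold. The Foxo6 call was lost without N1 (0.0587), N5 (0.0713), N6 (0.0723), T2 (0.0608) or N2 and N6 together (0.173). Irs2 and Insr, themselves known FOXO-activated genes, did not pass, as given above.

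**Figure D5:**
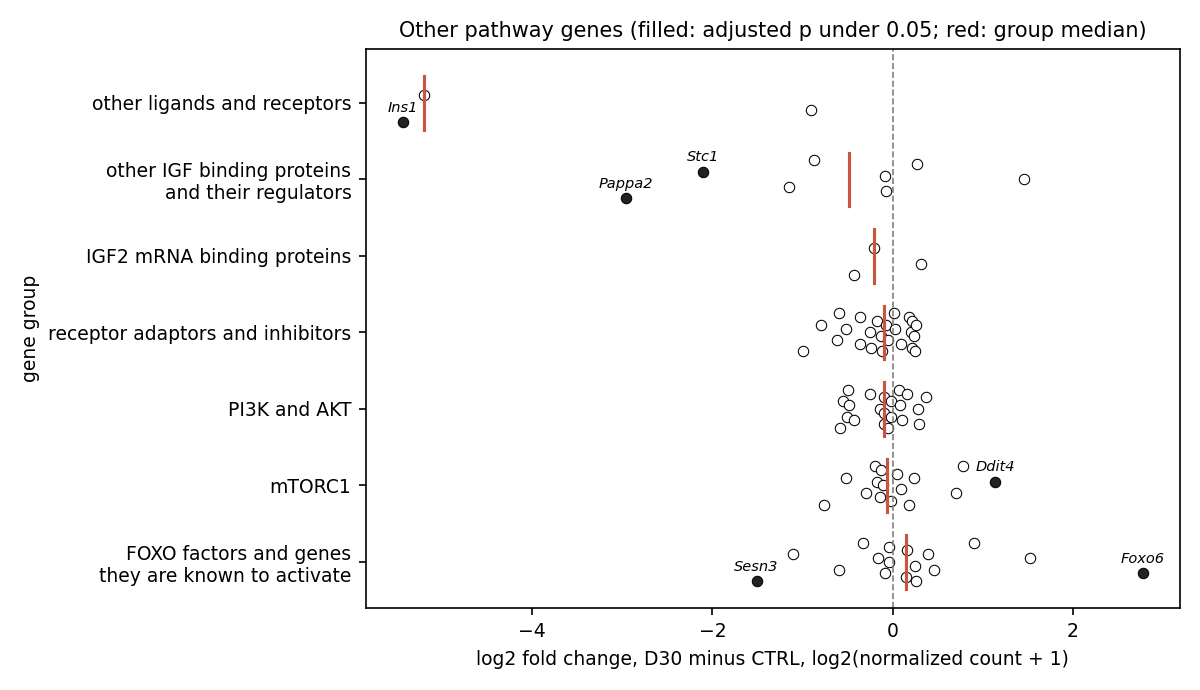
Log2 fold change (D30 minus CTRL, on log2(normalized count + 1)) of the 92 pathway genes tested in 7 groups, with filled, named points for a limma adjusted p under 0.05 and red lines at group medians. Most genes of PI3K and AKT lie near 0, between -0.58 and 0.38; the positions of Ins1, Ins2 and Foxo6 rest on the pseudocount of 1.

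For 5 of the remaining members, the genes most like each over the 10 tumors were Zbtb37 for Insr (r = 0.963), Sh3d19 for Irs1 (0.980), Phldb3 for Irs2 (0.991), Lrrc49 for Igfbp3 (0.945) and Akap12 for Igfbp7 (0.938). They describe how tumors of the same group vary and were given no test.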

How the data were processed

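RNA of 10 tumors was sequenced from strand-specific libraries, and the submitters' processing notes name Trim Galore, STAR 2.7.0e, DESeq2 and GRCm39 while the methods name hg38 and list RSEM. The deposited table holds a normalized signal for each gene in each tumor, made by the authors in the form of counts divided by a size factor. Within a tolerance of 0.01, 100.0% of values were whole multiples of 1 read, so reads were recovered. N columns were assigned to CTRL by letter and T columns to D30 as the only other group, and no column could be tied to a numbered animal. GENCODE M21 (GRCm38) named 52083 of 55359 genes (94.1%). D30 was compared with CTRL by limma 3.58.1 (R 4.3.3) with a mean-variance trend on log2(normalized count + 1) for 24560 genes with a mean of at least 1, Benjamini-Hochberg adjustment and a threshold of 0.05. Ratios were tested by two-sided exact permutation. The limma fit was tested on simulated counts with known changes, which held no tumor that stood apart as T4 and T5 do. Alternatives were other pseudocounts, filters and scalings, edgeR 4.0.16 and DESeq2 1.42.0 on recovered reads, array weights and leaving out tumors. Members, lists and tests were chosen with earlier results of these data known, and the fits without N2 and N6 or without T4 and T5 were chosen after seeing the data. Named genes were the 10 members, pathway genes called or with the 2 smallest p values of a group, and the genes most correlated with a member; the gene most like Igfbp5 is not reported here. P values measure the spread between tumors only, and floors cover counting error only.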

Additional observations from a re-analysis of the deposited data

Results flagged for a closer look

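Among 44 sets of 5 tumors (members and named pathway genes in each group), 10 had a highest or lowest tumor farther from the rest than Dixon's 95% critical value of 0.71 allows. Chance flags about 1 in 20 sets where values are normally distributed. The rule was applied to normalized counts without a log, and the sets share the same 10 tumors. The 10 flags therefore cannot be weighed against that rate. Among CTRL tumors, N5 was high for Insr (4523 normalized counts, the others 2850 to 3319) and low for Igf2r (207, the others 352 to 406), and N1 was high for Pappa2 (67.3, the others 20.1 to 30.4). Among D30 tumors, T1 was high for Igfbp5 (499.7, the others 6.87 to 62.8). T5 was high for Igfbp7 (13804, the others 7053 to 8997), Eif4ebp1 (9831, the others 3446 to 4705) and Ddit4 (15929, the others 5387 to 6044). T4 was high for Ins2 (11.6, the others 0) and Pappa2 (13.9, the others 0 to 3.44) and low for Grb10 (169, the others 313 to 368).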

How the results depend on the processing

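Igf2r kept its direction in 22 alternatives and passed in 21. The exception was the fit without N2 and N6 (2.17), which called 66 genes in all, 0 members and 0 pathway genes. DESeq2 called 1833 genes, 3 members and 10 pathway genes, with log2 fold changes of -1.69 for Igf1 and -0.87 for Igfbp3, both past the threshold there. With array weights the counts were 3829, 4 and 19, and Igf1 (-1.69), Igfbp3 (-0.61) and Igfbp7 (-0.80) passed. Library-size scaling called 4 members, with Igf1 at -2.25, Igfbp3 at -1.05 and Igfbp7 at -0.91 past the threshold, and turned the sign of Igf1r (-0.14) and Irs2 (-0.11), neither of which passed in any fit. It called 867 genes, 240 of them higher and 627 lower, and edgeR called 707, 457 higher and 250 lower, where the reported fit had 344 and 334. Without T4 and T5 the counts were 2418, 3 and 12, and Igf1 (-1.67) and Igfbp7 (-0.79) passed. Leaving out 1 tumor at a time gave 279 (without N2) to 1573 (without T4) genes called, 1 to 3 members and 2 to 8 pathway genes. The log2 fold changes then ran from -0.20 to 0.40 for Igf1r, -0.22 to 0.43 for Irs2, -2.33 to -1.45 for Igf1, -0.93 to -0.65 for Igfbp3, -3.10 to -1.61 for Igfbp5 and -0.84 to -0.59 for Igfbp7. The log2 ratios ran from 0.80 to 1.53 for Irs2 to Irs1, -2.63 to -1.83 for Igf1 to Igf2 and -2.30 to -0.84 for Igfbp5 to Igfbp3. The cause of these changes was not tested. No paired analysis was possible because the columns carry no replicate number of the labels. At this depth 3 reads were worth 2.17 to 3.47 normalized counts, which limits Igf2, Ins1 and Foxo6.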
